A study of Spinacia oleracea with 6 samples.

Results

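Abundant transcripts of spinach plants grown at control temperature that were far lower after heat made up 65 of the 32450 gene IDs in the deposited tables. Spinach, Spinacia oleracea, was kept in an illumination incubator at a day temperature of 20 °C with nights at 15 °C (control) or a day temperature of 35 °C with nights at 25 °C (heat), and the treatment lasted 4 days. RNA sequencing gave 3 libraries of each regime, and the stated aim was to find genes whose expression responds to the warmer regime. The labels name neither a cultivar nor a tissue, nor do they say whether replicate libraries are from different plants, so the spread between libraries may be technical. A gene was a member if, after scaling by median-of-ratios size factors, it had at least 200 CPM (reads per 1000000, put on one scale for all libraries) in each of the 3 control libraries, over 0.2 CPM in at least 1 heat library, and a highest heat level of at most 25% of its lowest control level. The rule was applied to 30724 numeric gene IDs, after 8 IDs listed in it had been left out, 6 of which would otherwise have met it. Because the members were chosen by this very contrast, their levels in control and heat are given as a description, with no test.

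In a green plant, much of the messenger RNA of illuminated tissue encodes proteins that the nucleus supplies to the chloroplast. In the Calvin-Benson cycle, Rubisco fixes carbon dioxide, phosphoglycerate kinase and a chloroplast glyceraldehyde phosphate dehydrogenase turn the product into triose phosphate, an isomerase interconverts its forms, and a translocator in the chloroplast envelope exports that triose phosphate to the cytosol. Rubisco activase, which frees Rubisco of bound sugar phosphates, is known as a heat-sensitive enzyme of this cycle. Of the 65 members, 63 had their gene number in a RefSeq gene table of the assembly BTI_SOV_V1, 62 as protein-coding genes and 1, LOC110782378, as a long non-coding RNA. Only 6 carried a name in that table. The other 59 are known here by number alone, so nothing can be said of what they encode. The 6 left-out IDs that would have met the rule also had names: rbcS2, gapA, lhcb1.3, PETE, NIA and PEAMT. The named members are thus only a part of the named genes within the limits.

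Library totals ranged from 42.3 to 56.8 M counts. The members took 9.90%, 9.81% and 9.75% of all counts in control libraries 1 to 3, and 1.38%, 1.56% and 1.48% in heat libraries 1 to 3. The exact binomial interval at the 95% level, which covers counting error only, was 9.74% to 9.76% for control library 3 and 1.48% to 1.49% for heat library 3. The share was thus almost level among control libraries and 9.82% ± 0.0766 against 1.47% ± 0.0905 between the groups (mean ± SD, n = 3 each). This share is taken without the size factors. In scaled CPM the members summed to 108609, 114577 and 125864 in control libraries 1 to 3, and so were less level. The 10 members with the highest control level per length held 59.4% ± 0.382 of the members' counts in control and 61.8% ± 4.15 in heat. In such bulk samples, fewer cells of a type and less RNA per cell cannot be told apart.

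Fold differences between the group means of scaled CPM ran from 4.54-fold to 90.9-fold lower in heat, with a median of 9.37-fold and quartiles of 7.24-fold and 17.9-fold. In all, 41 members were at least 8-fold lower, 18 at least 16-fold and 9 at least 32-fold. All 65 were tested by edgeR's quasi-likelihood test over the whole table and all 65 were called lower in heat, where 13.4% of the 20145 genes tested were called lower at an adjusted p below 0.05. This count follows from the rule and nothing is read from it. Their median fitted log2 fold change was -3.23, beside 0.02 for all genes tested. Every heat library lay below every control library in 22% of the genes tested, and the highest heat level was at most 25% of the lowest control level in 1.6%.

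**Figure D1:**
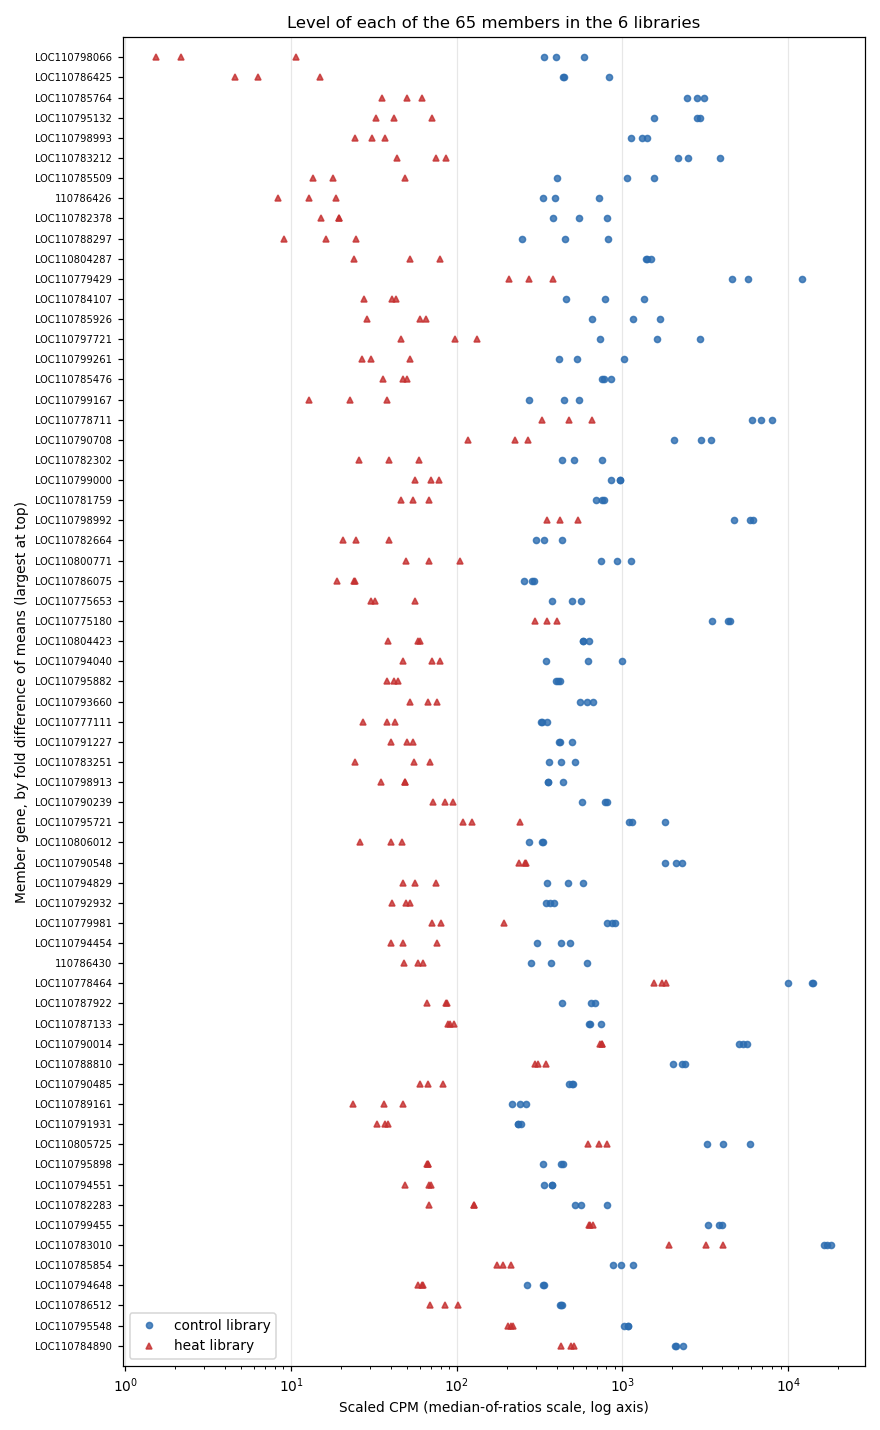
Scaled CPM (log axis) of each of the 65 members in the 3 control libraries (circles) and the 3 heat libraries (triangles), ordered by the fold difference of means. The fold of means is largest at the top, for LOC110798066 at 90.9-fold, and smallest at the bottom, for LOC110784890 at 4.54-fold.

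Most genes with the same control minimum were not lowered as far. There were 623 genes with at least 200 CPM in each control library, and the members were 10.4% of them. Every heat library lay below every control library in 55.4% of the 623. Of the 558 others, 280 also had every heat library below every control library, and 67 had every heat library above every control library. Among all genes tested, those shares were 22% and 23.2%. The median of the others was 1.39-fold lower in heat. Under edgeR's test 46.2% of the 623 genes were called lower and 5.78% higher. Because the 623 were chosen by their control level alone, the set leans toward genes lower in heat. Its shares are therefore a description, and nothing is read from them about abundant transcripts as a class.

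The members closest to the limit show how the rule set the edge of the group. For LOC110805725 the highest heat level was 24.9991% of the lowest control level, with 5896, 4032 and 3223 CPM in control and 619, 726 and 806 CPM in heat. LOC110782283 and LOC110794454 followed at 24.8% each. Just outside were LOC110804663 at 25.1%, LOC110788844 at 25.5% and LOC110777773 at 25.8%. Of these, LOC110804663 had 262, 985 and 987 CPM in control and 65.8, 63.5 and 44.3 CPM in heat, and control library 1 was the low one of its group. LOC110777773, with 8541, 7930 and 10119 CPM in control, had 868, 2046 and 864 CPM in heat, and heat library 2 was the high one of its group. Size factors taken over all gene IDs added LOC110804663 to the group, and those over all numeric IDs removed LOC110805725.

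**Figure D2:**
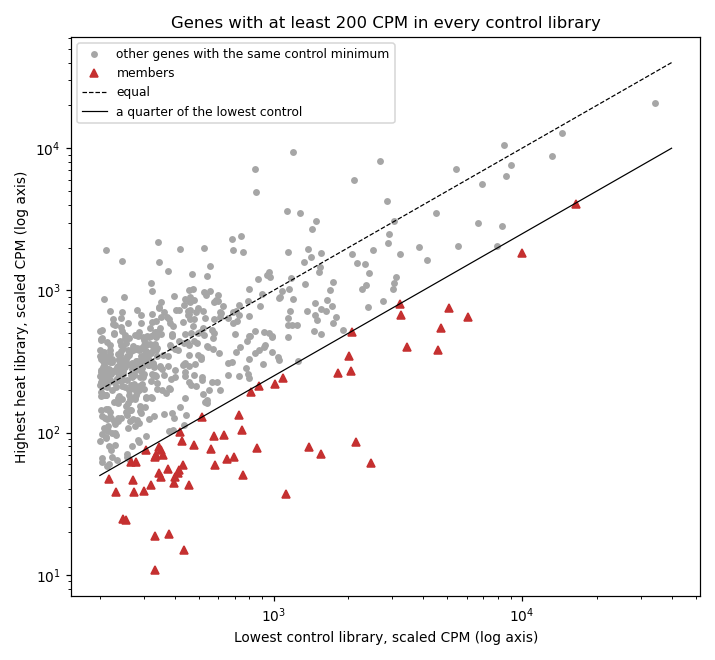
Lowest control level against highest heat level in scaled CPM (log axes) for the 623 genes with at least 200 CPM in every control library. Members (triangles) lie on or below the solid line at 25% of the lowest control level, and the 558 other genes (grey points) lie above it, on both sides of the dashed line of equal levels.

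The members with a reference name are given in the order of the steps above. RA (LOC110775180), a short name of Rubisco activase, had 4357, 4460.2 and 3454 CPM in control and 402, 298 and 349.7 CPM in heat. It was 11.7-fold lower in heat (log2 fold change -3.55, SE 0.24). pgk-chl (LOC110804423), the chloroplast phosphoglycerate kinase, had 579, 579 and 629 CPM in control and 38.6, 59.6 and 58.1 CPM in heat, which was 11.4-fold lower (log2 fold change -3.52, SE 0.22). Heat library 1 was the low one of its group.

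gapB (LOC110790548), a subunit of chloroplast glyceraldehyde phosphate dehydrogenase, had 1809.9, 2276 and 2106 CPM in control and 256, 262 and 238 CPM in heat, 8.19-fold lower (log2 fold change -3.03, SE 0.19). Its heat libraries lay close together, with a coefficient of variation of 5.09%. TIM (LOC110786512, also TPIP1), the chloroplast triose phosphate isomerase, had 424, 429.7 and 420.3 CPM in control and 69.0, 85.2 and 101 CPM in heat, 4.99-fold lower (log2 fold change -2.32, SE 0.19). Of all members it varied least among the control libraries, by 1.10%, while its heat libraries varied by 19%.

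cTPT (LOC110784890, also E29 and p36), the triose phosphate translocator of the chloroplast envelope, had 2118, 2316 and 2073 CPM in control and 490.3, 428 and 513 CPM in heat. At 4.54-fold (log2 fold change -2.18, SE 0.18) its difference of means was the smallest of the 65. The sixth name, L-AME (LOC110793660), stood for a gene with 663, 611 and 558 CPM in control and 52.3, 66.7 and 76.4 CPM in heat, 9.37-fold lower (log2 fold change -3.23, SE 0.21), which is the median of the members.

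A list of Calvin-Benson genes made by reference name held further genes that were not members. The list held 10 genes, all tested, of which 3 (pgk-chl, gapB and TIM) were members and 2 (rbcS2 and gapA) met the limits of level and fold but were among the 8 IDs left out. RA and cTPT did not match its name patterns. The remaining 5 were all called lower and 0 higher, where 13.4% and 11.7% of all genes tested were. At least 200 CPM in each control library was reached by 4 of these 5. Among the 623 genes at that level, 46.2% were called lower and 5.78% higher. The 5 include a cytosolic enzyme, Scytfbpy, that the name pattern also caught. SBPase (LOC110805656), which dephosphorylates sedoheptulose bisphosphate, stood at 618 ± 68.5 CPM under control and at 140.1 ± 31.1 under heat (log2 fold change -2.14, SE 0.22; edgeR adjusted p = 0.00125). PRK (LOC110791203), phosphoribulokinase, had 437 ± 38.8 and 122 ± 4.71 CPM (log2 fold change -1.84, SE 0.15; edgeR adjusted p = 0.000635). RPE (LOC110799621), ribulose phosphate epimerase, had 484 ± 58.2 and 131 ± 21.0 CPM (log2 fold change -1.89, SE 0.19; edgeR adjusted p = 0.00116). Their highest heat levels were 29.8%, 32.1% and 36.0% of their lowest control levels, above the limit of 25%.

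The pair of fructose bisphosphatases differed from these, FBPase in its level and Scytfbpy in the size of its change. FBPase (LOC110804252) was too low for the rule, at 34.9 CPM in its lowest control library, and went from 62.2 ± 40.3 to 14.9 ± 4.88 CPM (log2 fold change -2.06; edgeR adjusted p = 0.0204). The cytosolic form, Scytfbpy (LOC110797013), went from 1237 ± 168 to 762 ± 119 CPM, with a log2 fold change of -0.70 (edgeR adjusted p = 0.0447). That call was lost in each fit that left out 1 library, with an adjusted p of 0.0506 to 0.143, under library size alone (adjusted p = 0.399), with no filter (0.0565), with the replicate block (0.116) and with limma on log2(FPKM + 1) (0.395). FBPase did not pass when heat library 1 (adjusted p = 0.0794) or heat library 2 (adjusted p = 0.0651) was left out, nor with limma on log2(FPKM + 1) (adjusted p = 0.0612). No member came from the lists of photosystem I (6 genes tested) or photosystem II (6 genes tested). These lists were also made by reference name, so the 59 members without a name could not appear in them. All 12 genes tested were called lower, where 13.4% of all genes tested were. At least 200 CPM in each control library was reached by 6 photosystem I and 5 photosystem II genes. Of the 623 genes at that level, 46.2% were called lower. Median log2 fold changes were -1.60 and -1.66. Of the 12 genes, PSBR (LOC110805433), a photosystem II subunit, lost its call with the replicate block (adjusted p = 0.0510) and without control library 2 (adjusted p = 0.0583). Further lists made by name, not limited to photosynthesis, held no member either. Without left-out IDs, their median log2 fold changes were -1.21 (electron carriers), -1.66 (ATP synthase), -1.84 (nitrogen) and -1.32 (chaperones). Photorespiration and glycine betaine, with 1 such gene each, had -2.07 and -2.08. The only light harvesting gene was a left-out ID.

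**Figure D3:**
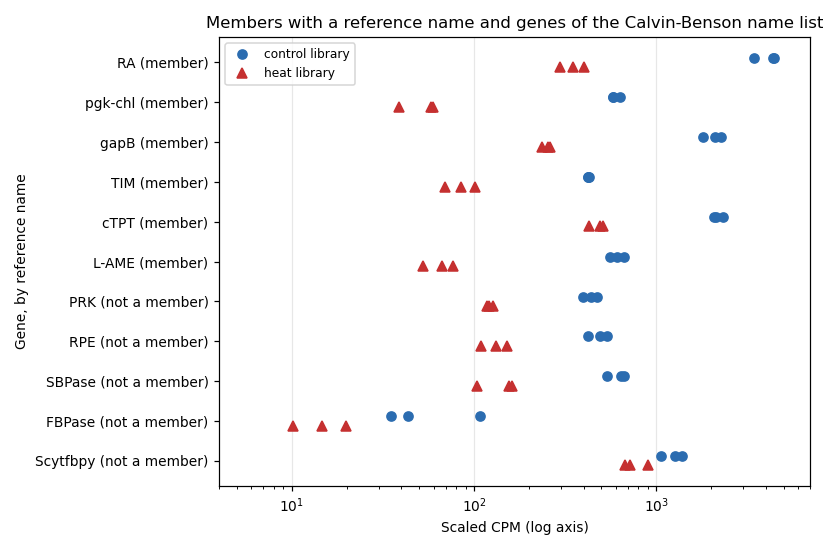
Scaled CPM (log axis) in the 3 control libraries (circles) and 3 heat libraries (triangles) of the 6 members with a reference name and of 5 further genes of the Calvin-Benson name list, of which Scytfbpy is cytosolic. The named members keep their highest heat library at or below 25% of their lowest control library, whereas PRK, RPE and SBPase sit at 29.8% to 36.0% and Scytfbpy at 84.8%.

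The level of one gene relative to another was read from FPKM, which divides by gene length. Of the 100 genes with the highest mean FPKM in control, 23 were members, and of the 100 highest in heat, 4 were. Mean FPKM of the members ranged from 80.4 to 16107 in control and from 4.13 to 3812 in heat. LOC110783010 had the highest level of the members, at 16107 ± 2085 FPKM in control and 3812 ± 1138 FPKM in heat, and went from rank 4 to rank 15 of all genes. Despite a difference of 5.68-fold in scaled CPM, it thus remained among the most abundant transcripts of the heat libraries. Its scaled levels were 18240.0, 17184 and 16547 CPM in control and 3176, 4051 and 1915 CPM in heat, and heat library 3 was the low one.

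LOC110778464 was next, at rank 14 in control and rank 46 in heat, with 10019, 13997 and 14119.9 CPM in control and 1844, 1731 and 1552 CPM in heat. LOC110779429 went from rank 15 to rank 269, with 4578, 5706 and 12121 CPM in control and 207, 383 and 272 CPM in heat. Control library 3 held more than the other control libraries did. LOC110778711 went from rank 16 to rank 135, with 6897, 6060.3 and 7988 CPM in control and 328, 652 and 474 CPM in heat. LOC110798992 went from rank 19 to rank 118, with 4701, 5891 and 6156 CPM in control and 349.5, 419 and 541 CPM in heat. These 5 genes were all within the first 20 of control by FPKM, and LOC110783010 alone was within the first 20 of heat.

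Of the next members by control FPKM, LOC110790014 was the steadiest, with 5678, 5361 and 5078 CPM in control and 755, 729.8 and 757 CPM in heat. Its coefficient of variation was 5.59% in control and 2.02% in heat. LOC110783212 had 2489.9, 2149 and 3867 CPM in control and 43.3, 86.5 and 75.4 CPM in heat, and its rank by FPKM went from 39 to 1326. LOC110795132 had 1548, 2919 and 2799 CPM in control and 42.0, 70.5 and 32.5 CPM in heat, and its rank went from 43 to 1951. Although near each other in rank in control, these 3 genes were 7.19-fold, 41.4-fold and 50.1-fold lower in heat.

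The largest fold was that of LOC110798066, with 335, 396 and 585 CPM in control and 1.54, 2.17 and 10.8 CPM in heat. This was a 90.9-fold lower mean in heat (log2 fold change -6.50, SE 0.87), and the heat values rested on 84, 105 and 568 reads. Heat library 3 stood well above the other heat libraries, and without it the log2 fold change was -7.88. LOC110786425 had 446, 435 and 827 CPM in control and 6.31, 4.60 and 14.9 CPM in heat, 66.3-fold lower (log2 fold change -6.05, SE 0.58). Here too heat library 3 was highest, and the log2 fold change without it was -6.70. LOC110785764, far more abundant, had 3096, 2462 and 2811 CPM in control and 35.5, 50.4 and 61.4 CPM in heat, 56.8-fold lower (log2 fold change -5.83, SE 0.30).

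Several further members were more than 30-fold lower. LOC110785509 had 401, 1062 and 1551 CPM in control and 18.0, 48.8 and 13.6 CPM in heat, 37.5-fold lower. Its log2 fold change was -5.23, and -6.00 when heat library 2 was left out. The gene number 110786426, which did not match the reference table, had 333, 389 and 725 CPM in control and 8.35, 18.7 and 12.8 CPM in heat, 36.4-fold lower. LOC110782378, the long non-coding RNA, had 807, 546 and 379 CPM in control and 19.5, 15.2 and 19.4 CPM in heat, 32-fold lower. Its control libraries spread widely while its heat libraries lay together, at a coefficient of variation of 37.3% against 13.6%. LOC110788297 had 249, 449 and 813 CPM in control and 16.3, 24.7 and 9.11 CPM in heat, 30.1-fold lower.

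Although far below control, the members were seldom near absence in heat. The lowest count of a member in a heat library was 84 reads, and 64 of the 65 had a mean heat FPKM above 5.11, the median of genes with heat reads. LOC110798066, at 4.13 FPKM, was the exception. The median of the members was 454 FPKM in control and 60.3 FPKM in heat.

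Members differed in how steady they were within a group. Coefficients of variation of scaled CPM had a median of 13.9% in control (range 1.10% to 63.1%) and 22.2% in heat (range 0.972% to 107%), against medians of 13.3% and 17.1% for the 558 other genes of the same control minimum. In 12 members (18.5%) the highest control library was at least 2 times the lowest, compared with 50 of the 558 others (8.96%). Control library 3 was the highest in 8 of these 12 and control library 1 the lowest in 10. LOC110797721 had the largest coefficient of variation in control, with 728, 1615 and 2933 CPM in control and 98.2, 133 and 46.2 CPM in heat. In control its highest library was 4.03 times its lowest, and in heat the order differed, with library 3 lowest.

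Because the rule sets the highest heat library against the lowest control library, a member with a wide control spread needs a larger difference of means to enter. Of the 12 wide members, 10 were at least 16-fold lower, and of the other 53 members, 8 were. The median difference was 23.1-fold in the first set and 8.55-fold in the second. How much of this gap the rule itself sets was not tested. Control library 3 also had the lowest size factor, 0.784, where the other libraries had 1.01 to 1.14, and the part of scaling in its high values was not tested.

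Within heat, the library that held the highest level differed between the members and other abundant genes. Heat library 3 was highest for 30 of the 65 members (46.2%) and for 91 of the 558 others (16.3%). Heat library 1 was highest for 9 members (13.8%) and 219 others (39.2%). Heat library 2 was highest for 26 members (40.0%) and 248 others (44.4%). Within control, library 3 was highest for 40.0% of the members and 43.2% of the others, so the difference between the sets was small there. These shares are over genes of the same libraries and were not tested. The 558 others hold genes lower and genes higher in heat, so they are not matched to the members in change. Among the left-out IDs that would have met the rule, rbcS2, gapA, NIA, PEAMT and lhcb1.3 were also highest in heat library 3. PETE was highest in heat library 2.

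**Figure D4:**
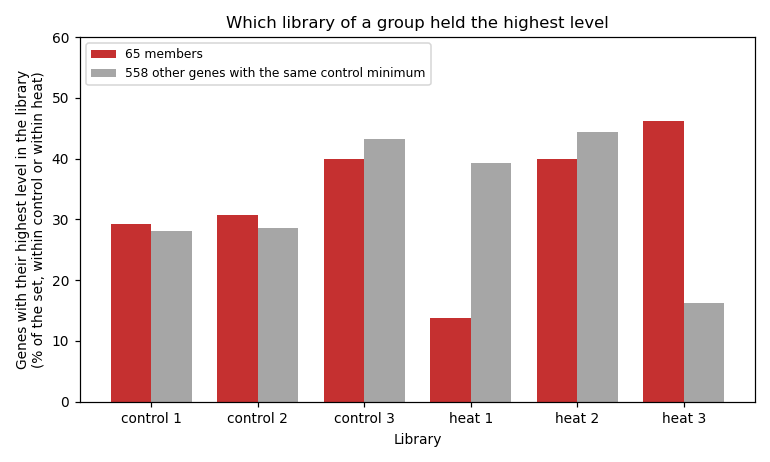
For each library, the percentage of genes whose highest scaled CPM within the group fell in that library, for the 65 members (red bars) and the 558 other genes with the same control minimum (grey bars). The bars of a set sum to 100% over control and again over heat, and the sets part most at heat library 3, at 46.2% against 16.3%.

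In the reference gene order, 5 members lay near another member, within 10 genes of it. The 2 members that did not match the reference table could not be placed. LOC110798993 and LOC110798992 were direct neighbours, and LOC110799000 was 5 genes away from the first of them. LOC110798993 had 1313, 1404 and 1124 CPM in control and 24.2, 36.8 and 30.8 CPM in heat, 41.8-fold lower, while its neighbour LOC110798992 was 12.8-fold lower. LOC110799000 had 971, 856 and 968 CPM in control and 56.0, 77.9 and 70.1 CPM in heat, 13.7-fold lower. All 3 were short, at 706, 755 and 676 bp, as the FPKM imply. Between them lay LOC110799007, of 2488 bp, with 24.2, 35.6 and 15.6 CPM in control and 10.8, 14.4 and 5.36 CPM in heat (log2 fold change -1.30; edgeR adjusted p = 0.0625), which did not pass the test. It passed with the replicate block (adjusted p = 0.0164), with DESeq2 (adjusted p = 0.0120) and without control library 3 (adjusted p = 0.0400), and over all alternatives the adjusted p ranged up to 0.196.

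A second pair, LOC110782302 and LOC110782283, enclosed a gene of almost the same length that was not a member. LOC110782302, of 482 bp, had 432, 510.1 and 755 CPM in control and 25.6, 38.9 and 59.2 CPM in heat, 13.7-fold lower. LOC110782283, of 491 bp, had 559, 515 and 810.3 CPM in control and 68.0, 128 and 128 CPM in heat, 5.82-fold lower. The gene between them, LOC110782294, of 488 bp, had 1692, 1552 and 2268 CPM in control and 844, 1824 and 1052 CPM in heat. Its groups overlapped, through heat library 2, and it did not pass the test (log2 fold change -0.57, SE 0.33; edgeR adjusted p = 0.244). No sequence was at hand to tell whether genes so placed are near-identical copies, among which reads could have been split, so their separate levels are uncertain. The same holds for LOC110783010, the most abundant member, which had abundant genes that were not members directly beside it. These were LOC110783009, with means of 44142 CPM in control and 15630 CPM in heat, and LOC110783011, with 4664 and 970 CPM. Of 83 tested genes directly beside a member, 20 (24.1%) were called lower and 6 (7.23%) higher, where 13.4% and 11.7% of all genes tested were.

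**Figure D5:**
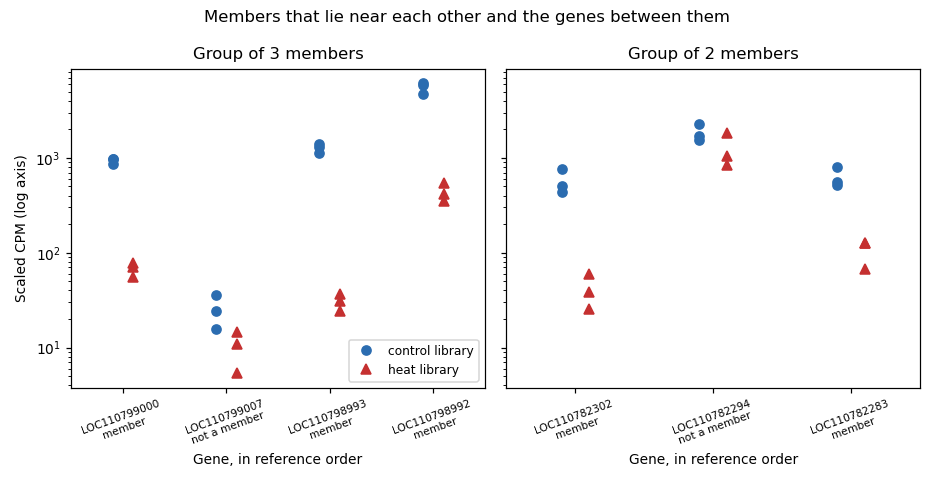
Scaled CPM (log axis) in the control (circles) and heat (triangles) libraries of members that lie near each other in the reference gene order, and of the genes between them that had over 1 CPM in control. LOC110782294, between the members LOC110782302 and LOC110782283, has a heat library at 1824 CPM within its control range of 1552 to 2268 CPM.

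Members were somewhat shorter than other genes. The length that the authors' FPKM imply had a median of 1174 bp for the members (range 482 to 3226 bp), 1521 bp for the 558 other genes with the same control minimum and 1565 bp for all genes tested. At most 1000 bp long were 35.4% of the members, 26.7% of those others and 23.3% of all genes tested. Long non-coding RNAs were 1.59% of the matched members and 1.27% of the matched others.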

How the data were processed

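RNA sequencing libraries of 3 control and 3 heat samples were grouped by the labels, which were also matched to the table columns by title. The authors deposited read counts per gene without normalization, as whole numbers, and FPKM values, which equal the count over a length per gene and the library total (checked for the 65 members within a relative tolerance of 1e-06). Per the submitters' processing notes, HISAT2 2.0.4, HTSeq 0.9.1 and DESeq 1.18.0 were used, with no role or order stated. The genome build, the annotation, strand and the handling of multiply aligned reads were not given in the sources used here.

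Size factors and CPM followed the rule for members, which did not say over which IDs to take them. The numeric IDs without the 8 left out were used. Counts were tested with edgeR 4.0.16 in R 4.3.3 (quasi-likelihood, the same size factors, edgeR's filter on low counts, group as the only term, two-sided, Benjamini-Hochberg adjustment, threshold 0.05), and the code was tested on simulated data. Alternatives used TMM, library size, no filter, DESeq2 1.42.0, limma 3.58.1 on log2(FPKM + 1), a replicate block, other limits of the rule and each library left out. The members and lists were chosen with earlier results of these data known. Genes were named by rule: the 10 members highest in control FPKM, the 10 with the largest fold, those with reference names, the 3 on each side of the limit, and the 3 most variable in each group. Members added for position were chosen after their values were seen. Protein comparisons, promoter motifs and sequences were not analysed here.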

Additional observations from a re-analysis of the deposited data

How the results depend on the processing

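Since the members were chosen on this contrast in these libraries, their calls under other fits (65 lower in each) show nothing of stability. Their median log2 fold change of -3.23 was -3.37 to -3.12 with 1 library left out, -2.77 under library size alone and -2.77 with limma on log2(FPKM + 1). Library size alone moved the median of all genes tested from 0.02 to 0.47, about the same shift. Of all genes tested, 5067 were called, 46.7% of them higher. Library size alone called 7759 (81.0% higher), limma on log2(FPKM + 1) 7907 (80.5% higher) and fits without 1 library 2309 to 4366, fewest without control library 2 and 2649 without heat library 1. With the replicate number as a block, 2610 were called and all members still were. Deviations from the group means had correlations across genes of -0.13, -0.12 and -0.29 between libraries of the same number. Between libraries of different numbers they were -0.18 to 0.28. Deviations from a mean of 3 libraries must balance within a group, so these values cannot tell whether the numbers pair the samples.

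The number of members depended on the limits by construction. It was 62 under TMM and 43 under library size alone, 90 and 42 with control minimums of 100 and 400 CPM, and 166 and 23 with a highest heat level of at most 50% and 12.5% of the lowest control. With 1 library left out it was 66 to 94. Size factors over all gene IDs or over all numeric IDs, tried after seeing the data, gave 66 and 64, with 65 and 64 shared. The share of counts in members ranged from 9.78% to 9.86% in control and 1.43% to 1.52% in heat with 1 library left out. The log2 fold changes of the members and threshold genes named by rule kept their sign and call under all 12 alternatives, as the choice by this contrast makes likely. Calls of other genes that changed (Scytfbpy, FBPase, PSBR and LOC110799007) are given beside their values. Every member had at least 84 reads in every library.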
